A study of Mus musculus with 8 samples.

Results

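Of the 1915 mature miRNA names listed for each library, 7 belong to the miRNAs embedded in the Hox gene clusters, and they were taken by name: mmu-miR-10a-5p, mmu-miR-10a-3p, mmu-miR-10b-5p, mmu-miR-10b-3p, mmu-miR-196a-5p, mmu-miR-196b-5p and mmu-miR-615-3p. The libraries came from small RNA of the prefrontal cortex of C57BL/6 mice aged 12 weeks, with 4 libraries from wild-type mice (replicates 1, 2, 3 and 4) and 4 from Fkbp5 knockout mice (replicates 1, 2, 4 and 5). Fkbp5 encodes an Hsp90 co-chaperone that restrains the glucocorticoid receptor. The labels do not say how the knockout was made, whether each library was a separate animal or which sex was used, so a p-value covers only how far these samples spread, which may be technical. Fkbp5 messenger RNA is not read by a small RNA library, and the genotype labels were not checked here.

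Hox genes encode homeodomain transcription factors that set position along the head-to-tail axis, and they are silent in the forebrain during development. The miRNAs lying between them tend to be expressed with their neighbours, so in the nervous system miR-10 and miR-196 are known from spinal cord and hindbrain, and both repress Hox messenger RNAs. miR-10a and miR-10b are also found in blood vessels and other tissue of the trunk. Cortex is therefore a tissue in which low levels are the usual finding.

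The mature sequences, from RefSeq on GRCm38.p6, are shown because the family is defined by the seed, bases 2 to 8 counted from the 5′ end (in capitals), by which a miRNA finds its targets. All 7 names matched an entry.
miR-10a-5p: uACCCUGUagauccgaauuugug
miR-10b-5p: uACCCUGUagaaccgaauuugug
miR-10a-3p: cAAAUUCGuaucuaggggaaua
miR-10b-3p: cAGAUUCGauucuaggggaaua
miR-196a-5p: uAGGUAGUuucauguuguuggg
miR-196b-5p: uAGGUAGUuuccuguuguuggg
miR-615-3p: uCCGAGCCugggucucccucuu
miR-100-5p: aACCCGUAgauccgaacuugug

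miR-10a-5p and miR-10b-5p have the same seed and differ by the single change U12A, counted from the 5′ end with the miR-10a-5p base first. No other of the 1679 distinct mature mouse names in the table carries that seed. miR-196a-5p and miR-196b-5p share another seed, also held by these 2 names alone, and differ by A12C. The passenger strands miR-10a-3p and miR-10b-3p differ by A3G, U9A and A10U, the first of which lies in the seed. miR-100-5p, a relative of miR-10 outside the Hox clusters, is 1 base shorter, stands 3 edits from miR-10a-5p and has a different seed. How the authors' counting treated reads that match a sequence with 1 mismatch is not given in the sources used here, so the split between miR-10a-5p and miR-10b-5p, and that between miR-196a-5p and miR-196b-5p, is uncertain to that extent.

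The hairpins lie in all 4 Hox clusters (GRCm38, the assembly mm10 names). Mir10a is on chromosome 11 from 96317165 to 96317274 (+ strand), in no annotated gene and 993 bases from Hoxb4. Mir10b is on chromosome 2 from 74726070 to 74726137 (+), within introns of transcripts of Hoxd3 and Hoxd4. miR-196a-5p has a pair of source hairpins that its mature sequence cannot tell apart. Mir196a-1 is on chromosome 11 from 96265164 to 96265265 (+), in no annotated gene and 6192 bases from Hoxb9, and Mir196a-2 is on chromosome 15 from 102973350 to 102973434 (+), in an intron of a Hoxc5 transcript. Mir196b is on chromosome 6 from 52230081 to 52230165 (-) within Hoxa9, in an exon of 2 transcripts and an intron of 1. Mir615 is on chromosome 15 from 103014910 to 103015001 (+), in an intron of Hoxc5.

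Values in the text are of 2 kinds. A deposited value is the number the authors gave, which the file headers call a normalized count, and a rescaled value is that number divided by a factor that brings the libraries to a common scale. The deposited values of a library summed to between 16.2 and 21.6 in units of 1000000, and the factors lay between 0.828 and 1.23. The deposited values are whole numbers with unequal library totals, so they may be raw read counts despite the headers. That could not be settled here, and no counting interval is given. The neuronal content of the tissue was checked on 5 miRNAs (miR-128-3p, miR-9-5p, miR-124-3p, miR-132-3p and miR-137-3p), which were present in every library, with miR-128-3p between 3464470 and 5237740 after rescaling.

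All 7 names had a value above 0 in at least 1 library, but only the guide strands of miR-10 reached a level that could be tested. Each of these strands had a deposited value above 10 in 8 of 8 libraries. The other 5 members summed to a deposited value of 60 over all 8 libraries, against 1832 for miR-10a-5p and 1493 for miR-10b-5p. Mature miRNAs are of nearly equal length (22 or 23 bases here), so no length correction was made. Ligation and amplification also depend on sequence, which was not measured, so ratios between miRNAs are ratios of library values and not of molecules. Over the 8 libraries the rescaled level was 227 ± 75.8 for miR-10a-5p and 184 ± 92.1 for miR-10b-5p (SD, n = 8), 309th and 325th among the 599 miRNAs tested. The next in order were miR-196a-5p at 2.83 ± 3.40, miR-10a-3p at 2.25 ± 1.96, miR-10b-3p at 1.21 ± 1.09, miR-615-3p at 0.865 ± 0.620 and miR-196b-5p at 0.151 ± 0.427. Neighbours in this order overlapped in their ranges, except miR-10b-5p and miR-196a-5p, whose values were far apart.

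**Figure D1:**
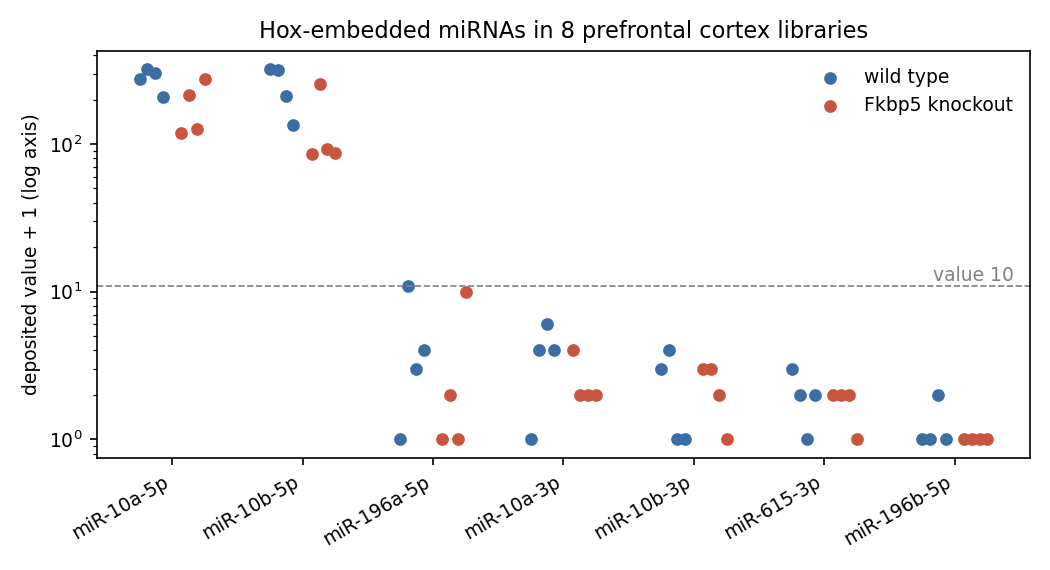
Deposited value plus 1 (log axis) of the 7 Hox-embedded miRNAs in each library, with 4 wild-type libraries in blue and 4 Fkbp5 knockout libraries in red, 1 point per library. The miR-10 guide strands sit between 84 and 320, and every other member is at or below the dashed line at a value of 10.

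The passenger strands, the arm of the hairpin that is usually degraded, were barely present. miR-10a-3p had deposited values of 0, 3, 5 and 3 in wild-type replicates 1 to 4 and 3, 1, 1 and 1 in knockout replicates 1, 2, 4 and 5. miR-10b-3p had 2, 3, 0 and 0 in the wild type and 2, 2, 1 and 0 in the knockout. Summed over libraries, the 5p arm exceeded the 3p arm 108-fold for miR-10a and 149-fold for miR-10b, so nearly all of the miR-10 library value was the guide strand. In single libraries the 5p share was at least 97.5% for miR-10a and 97.7% for miR-10b. The ranges of the genotypes overlapped for both passenger strands.

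miR-196, which pairs almost perfectly with Hoxb8 messenger RNA, was near the lower limit of the data. miR-196a-5p had deposited values of 0, 10, 2 and 3 in the wild type and 0, 1, 0 and 9 in the knockout, in the order of replicates above. Its highest values were in wild-type replicate 2 and knockout replicate 5, and the genotypes overlapped over their full range. miR-196b-5p was listed at 0 in 7 libraries and at 1 in wild-type replicate 3. Of the 3p arms of the miR-196 hairpins, miR-196a-1-3p was listed at 1 in wild-type replicate 4 and at 0 elsewhere, and miR-196a-2-3p and miR-196b-3p were at 0 in every library.

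miR-615-3p, from the Hoxc cluster, had deposited values of 2, 1, 0 and 1 in the wild type and 1, 1, 1 and 0 in the knockout. Its other arm, miR-615-5p, was at 0 in all 8 libraries. At these levels no difference between genotypes was detectable for any of the 5 low members, and none entered the test.

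The comparison by genotype asks whether cortical miRNAs differ when Fkbp5 is missing. Both miR-10 guide strands had lower mean levels in the knockout, by 1.58-fold for miR-10a-5p and 2.02-fold for miR-10b-5p on the log scale, and neither passed the test after adjustment. miR-10a-5p had rescaled values of 257, 261, 363 and 222 in wild-type replicates 1 to 4. In knockout replicates 1, 2, 4 and 5 it had 134, 220.1, 123 and 239. Replicates 1 and 4 of the knockout were far below every wild-type library, replicate 2 was just below the lowest of them, and replicate 5 lay inside the wild-type range. The wild-type mean was 276 ± 60.8 and the knockout mean 179 ± 59.0 (SD, n = 4 libraries per genotype). On the log2 scale the knockout differed by -0.66 ± 0.24 (SE). Its unadjusted p by limma was 0.0175 and its adjusted p 0.831, and the two-sided exact permutation p over 70 arrangements was 0.0571.

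miR-10b-5p had rescaled values of 300.1, 257, 253 and 144 in wild-type replicates 1 to 4, and 96.1, 259, 89.7 and 75.0 in knockout replicates 1, 2, 4 and 5. Knockout replicates 1, 4 and 5 were below every wild-type library, whereas replicate 2 matched the upper wild-type values, and wild-type replicate 4 lay between the 2 sets. No library had a value between 144 and 253. The wild-type mean was 239 ± 66.6 and the knockout mean 129.9 ± 86.5 (SD, n = 4 libraries per genotype). On the log2 scale the knockout differed by -1.01 ± 0.36 (SE). Its unadjusted p by limma was 0.0153, its adjusted p 0.831, and its exact permutation p 0.114, where the smallest p that 4 against 4 allows is 0.0286. The 95% intervals, not adjusted for the number of miRNAs tested, ran from -1.18 to -0.14 for miR-10a-5p and from -1.79 to -0.23 for miR-10b-5p on the log2 scale. In bulk tissue, fewer cells holding a miRNA and less of it per cell cannot be told apart.

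**Figure D2:**
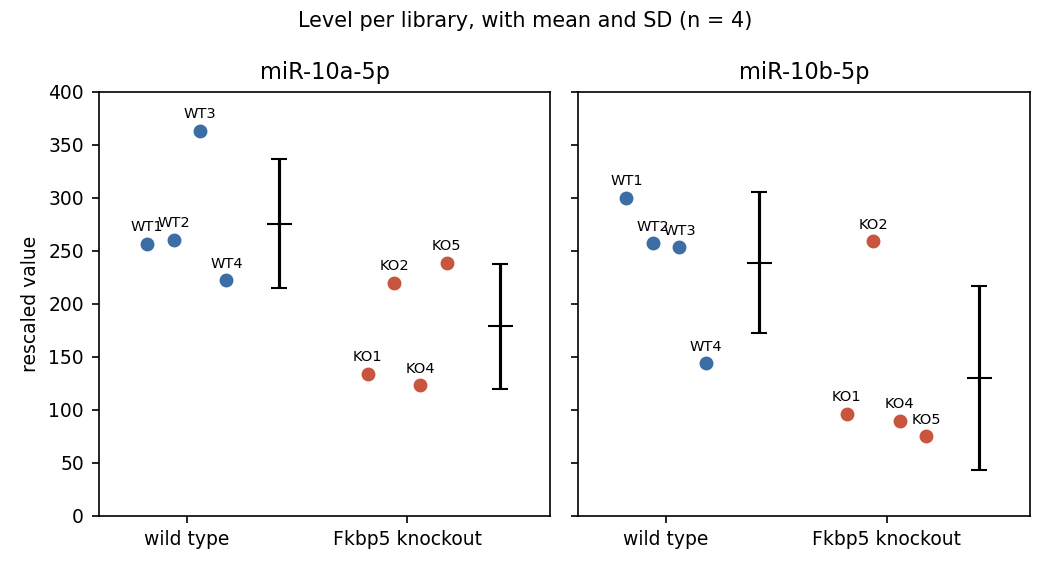
Rescaled value of miR-10a-5p (left) and miR-10b-5p (right) in each library by genotype, with the mean and SD of 4 libraries as a black bar beside the points. Knockout replicates 1 and 4 are low for both, replicate 2 is at 259 for miR-10b-5p among the wild-type values, and replicate 5 is low for miR-10b-5p (75.0) but not for miR-10a-5p (239).

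Neither member was called, and the same fit called 0 of the 599 miRNAs tested (0%) at an adjusted p of 0.05, with 26 at an unadjusted limma p under 0.05. Both were among the 18 miRNAs with an unadjusted p under 0.05 and a lower level in the knockout, which were 3.01% of those tested. That count was 5 in the values as deposited, 8 with upper quartile scaling and 10 without knockout replicate 4. These members were chosen with such results known, so the count of 2 supports nothing. Both had a deposited value over 10 in all 8 libraries, so neither entered the fit through its wild-type level alone. miR-10b-5p ranked 5th and miR-10a-5p 16th of 599 by the size of the log2 fold change, whose median size over all miRNAs was 0.11 (median of the signed values 0.01). They were also variable within genotypes: the residual SD of log2 values was 0.65 for miR-10b-5p and 0.40 for miR-10a-5p, against a median of 0.25, and 93.5% and 78.8% of the tested miRNAs had a smaller one. The unadjusted p of miR-10b-5p rose to 0.0513 without wild-type replicate 1 and fell to 0.000169 without knockout replicate 2 (adjusted p 0.0783 by limma). That of miR-10a-5p rose above 0.05 without wild-type replicate 3 (0.0561), knockout replicate 1 (0.0535) or knockout replicate 4 (0.0651).

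The relatives of miR-10 outside the Hox clusters had far higher library values and were steadier. miR-99a-5p ran from 42904 to 52655 over the 8 libraries, miR-100-5p from 26447 to 36608 and miR-99b-5p from 10068 to 13741, all rescaled values. Their mean library values were 207, 131 and 54.4 times that of miR-10a-5p. Their log2 fold changes were 0.0020 ± 0.093, -0.12 ± 0.11 and 0.14 ± 0.10 (SE), and the limma adjusted p was 0.999 for each. miR-99a-5p stands 4 edits and miR-100-5p 3 edits from miR-10a-5p, and miR-99b-5p stands 5 edits from miR-10b-5p. In the same order, their ranges across libraries were 1.23-fold, 1.38-fold and 1.36-fold. These were narrower than the 2.95-fold range of miR-10a-5p and the 4.0-fold range of miR-10b-5p.

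**Figure D3:**
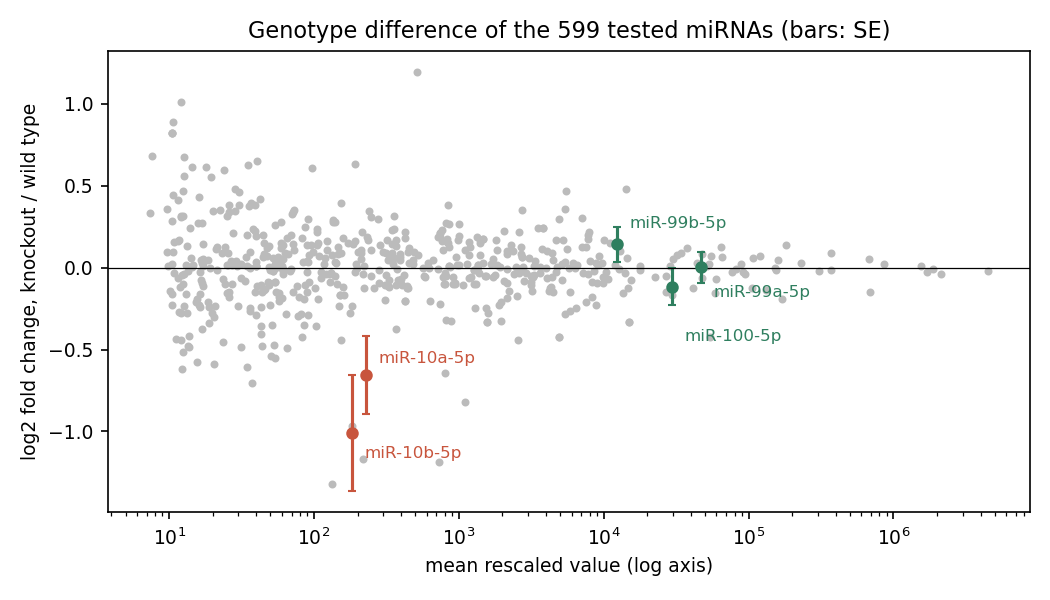
Log2 fold change, knockout over wild type, against mean rescaled value (log axis) for the 599 tested miRNAs (grey), with the miR-10 guide strands in red, their relatives outside the Hox clusters in green and bars for the SE. miR-10a-5p (-0.66) and miR-10b-5p (-1.01) lie near the lower edge, and miR-99a-5p, miR-99b-5p and miR-100-5p lie near 0.

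The miR-10 guide strands varied together in part. The level of miR-10b-5p was below that of miR-10a-5p in 6 of 8 libraries. Across the 8 libraries Pearson's r of log2 values was 0.662 (two-sided exact permutation p = 0.0891) and Spearman's rho was 0.429 (exact p = 0.299). Without knockout replicates 1 and 4, the libraries farthest from the median of miR-10a-5p, r was 0.333 (exact p = 0.504). Leaving out both also narrows the range of miR-10a-5p. Without replicate 1 alone r was 0.590 (exact p = 0.185), and without replicate 4 alone 0.563 (exact p = 0.213). Without knockout replicate 5 instead, r was 0.873 (exact p = 0.0133). Taken as deviations from the genotype means, r was 0.378, given as a description.

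The ratio of miR-10b-5p to miR-10a-5p, which no scaling between libraries can alter, was 1.17, 0.988, 0.698 and 0.647 in wild-type replicates 1 to 4. In knockout replicates 1, 2, 4 and 5 it was 0.718, 1.18, 0.728 and 0.314. Knockout replicate 5 had the lowest ratio, and the other knockout libraries spanned the same values as the wild type. The wild-type libraries had a mean log2 ratio of -0.23 ± 0.40 and the knockout libraries -0.59 ± 0.79 (SD, 4 libraries each). These differed by -0.35, with an exact permutation p of 0.629. Without knockout replicate 5 the difference was 0.0027, and over replicates 1, 2 and 4 of both genotypes it was -0.09, so most of its size came with that library. Since both strands carry 1 seed, their levels can be added: the rescaled sum was 557, 518, 617 and 366 in the wild type and 229.9, 479, 213 and 314 in the knockout. Knockout replicates 1, 4 and 5 had the lowest sums, and replicate 2 lay inside the wild-type range.

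**Figure D4:**
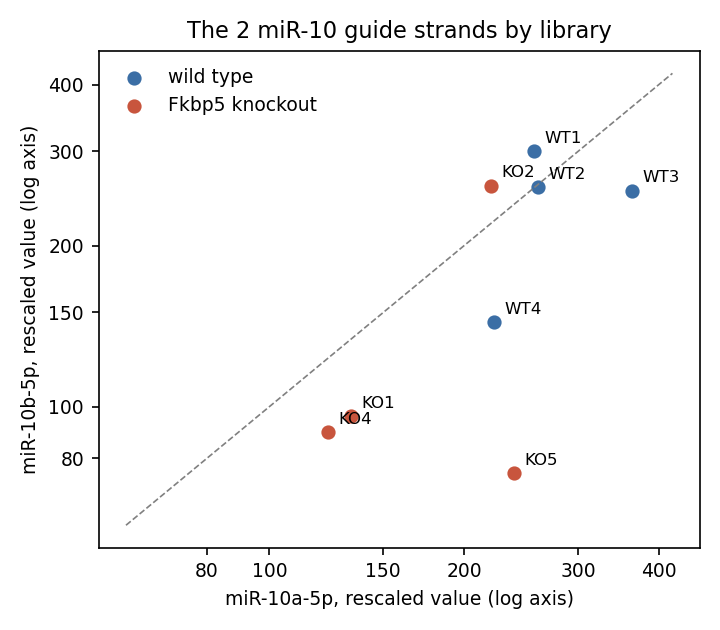
Rescaled value of miR-10b-5p against miR-10a-5p in the 8 libraries (both axes log), wild type in blue, Fkbp5 knockout in red and equality as a dashed line. Knockout replicates 1 and 4 are low for both strands, and knockout replicate 5 stands far below the line with a ratio of 0.314.

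The miRNAs whose log2 levels followed each strand most closely over the 8 libraries were found among all those tested, as a description with no p. For miR-10b-5p these were miR-1966-3p (r = 0.940), miR-195a-3p (0.926) and miR-145a-3p (0.903), the last from a hairpin abundant in smooth muscle. For miR-10a-5p they were miR-3074-5p (0.856), miR-1983 (0.816) and miR-183-5p (0.804), a miRNA known from sensory organs. The closest match of each strand was near the filter value of 10, so its r rests on low values. Rescaled values ran from 6.86 to 21.6 for miR-1966-3p and from 13.7 to 31.4 for miR-3074-5p. With all 599 tested miRNAs as candidates, miR-10a-5p came 26th among the neighbours of miR-10b-5p, and miR-10b-5p 22nd among those of miR-10a-5p. Each strand was thus high in the order of the other, but was not its closest match. Deviations from genotype means gave r between 0.608 and 0.905 for these 6 pairs. All these points share their libraries and scaling factors.

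Markers of smooth muscle and mesenchyme, found in vessel walls and meninges, were set beside the miR-10 guide strands. Their 5 listed miRNAs (miR-143-3p, miR-199a-3p, miR-145a-5p, miR-199a-5p and miR-214-3p) were above 0 in every library, and all 5 had a negative log2 fold change, with 0 called. Of all 599 miRNAs tested, 284 (47.4%) had a negative log2 fold change. So had 2 of 2 tested endothelial, 3 of 3 oligodendrocyte and 4 of 4 epithelial and olfactory bulb markers. For neurons it was 2 of 5, and 2 of 3 for red blood cells, choroid plexus and striated muscle each. The fold changes of miR-145a-5p (-0.08 ± 0.21) and miR-199a-5p (-0.13 ± 0.20) were smaller than their SE. The 5 smooth muscle and mesenchyme markers share libraries, so their signs are not independent. The rescaled sum was 64078, 81255, 64536 and 66457 in wild-type replicates 1 to 4 and 49899, 71278, 42459 and 47065 in knockout replicates 1, 2, 4 and 5. The same 3 knockout libraries that were low for miR-10b-5p were low in this sum, and replicate 2 was again inside the wild-type range. Wild-type replicate 4, low for miR-10b-5p, was not low in it. Most of the sum was miR-143-3p (mean 53783), so it is close to the level of 1 miRNA. miR-143-3p and miR-199a-3p were below every wild-type library in those knockout libraries, but the other listed markers were not in all of them. miR-145a-5p (1864, 1673 and 1834) lay there above wild-type replicates 1 and 4 (1469 and 1669). Across the 8 libraries r of miR-10b-5p with this sum was 0.864 (exact permutation p = 0.00985, adjusted over 16 correlations 0.152) and rho was 0.690 (exact p = 0.0694, adjusted 0.423), so the relation did not pass adjustment. Without knockout replicates 4 and 5, the libraries farthest from the median of the sum, r was 0.722 (exact p = 0.125), and for deviations from the genotype means it was 0.751. On the marker sum the 3 low knockout libraries stand apart from the other 5. For miR-10b-5p wild-type replicate 4 (144) lay between them and the rest. Neither the 3 nor the 5 are enough for an r of their own. For miR-10a-5p and the same sum r was 0.659 (exact p = 0.0824, adjusted 0.310) and rho 0.476 (exact p = 0.243, adjusted 0.556). The part of this tissue in the miR-10 values was not tested. Both endothelial markers (miR-126a-3p and miR-126a-5p) were present throughout, and their sum ran from 17694 to 23708 in the wild type and from 17223 to 19934 in the knockout.

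Markers of epithelium and olfactory bulb followed another order. The sum of miR-200b-3p, miR-200c-3p, miR-200a-3p, miR-429-3p and miR-141-3p, all above 0 in every library, was 534, 3659, 2080.9 and 647 in wild-type replicates 1 to 4 and 295, 295, 557 and 2099.5 in knockout replicates 1, 2, 4 and 5. All 4 tested markers of this list had a negative log2 fold change, as had 47.4% of all miRNAs tested, with 0 called. Their unadjusted limma p ran from 0.103 to 0.220. Their residual SD of log2 values ran from 1.29 to 1.56, against a median of 0.25 over all miRNAs. They were high in the same libraries, so their signs are not independent. The high libraries were wild-type replicates 2 and 3 and knockout replicate 5. Wild-type replicate 2 and knockout replicate 5 also held the deposited values of 10 and 9 for miR-196a-5p, but wild-type replicate 3 had 2, below the 3 of wild-type replicate 4. Wild-type replicate 3 held the highest miR-10a-5p, and knockout replicate 5 the highest of its genotype. The rescaled miR-10a-5p of wild-type replicate 2 (261) was close to that of wild-type replicate 1 (257), whose sum was low, and that of knockout replicate 5 (239) was below it. miR-10b-5p was lowest in knockout replicate 5. The r of this sum was 0.611 with miR-10a-5p (exact permutation p = 0.115, adjusted 0.310) and 0.114 with miR-10b-5p (exact p = 0.787, adjusted 0.839). The part of such tissue in the miR-10a-5p and miR-196a-5p values was not tested.

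**Figure D5:**
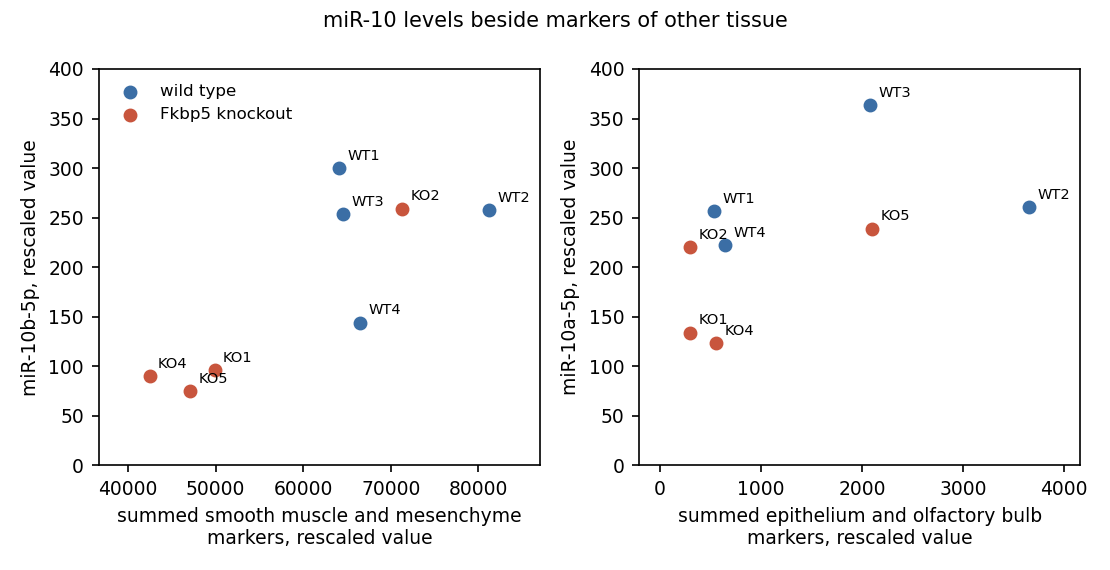
Rescaled value per library of miR-10b-5p against the summed smooth muscle and mesenchyme markers (left) and of miR-10a-5p against the summed epithelium and olfactory bulb markers (right), wild type in blue and Fkbp5 knockout in red. On the left, knockout replicates 1, 4 and 5 lie at the lower left (sums of 42459 to 49899), and on the right wild-type replicates 2 and 3 and knockout replicate 5 have the high marker sums.

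Over 8 marker lists and both strands 16 correlations were computed, and none passed 0.05 after Benjamini-Hochberg adjustment, the smallest adjusted value being 0.152. For striated muscle (miR-1a-3p, miR-133a-3p and miR-206-3p) and miR-10b-5p, r was 0.733 (exact permutation p = 0.0189, adjusted 0.152) and rho 0.857 (exact p = 0.0107, adjusted 0.171). Without wild-type replicates 1 and 4, the 2 libraries farthest from the median of the marker sum, r was 0.925 (exact permutation p = 0.00139, not adjusted). For deviations from the genotype means r was 0.713. That sum ran from 13368 to 20114 in the wild type and from 13808 to 16179 in the knockout, so these ranges overlapped fully. Most of it was miR-1a-3p (mean 14671, against 632 for miR-133a-3p and 136 for miR-206-3p). For miR-10a-5p and the same list r was 0.313. The sums of the neuronal, red blood cell, choroid plexus and oligodendrocyte lists overlapped between genotypes, and their r with either strand ran from -0.456 to 0.606. Most of the choroid plexus sum was miR-204-5p (mean 8342), and most of the oligodendrocyte sum was miR-219a-2-3p (mean 13516). The oligodendrocyte sum therefore hides miR-219a-5p, which was 35.0 to 49.7 in the wild type and 21.7 to 30.5 in the knockout, without overlap. Such a separation with lower knockout values was seen for 8 of the 599 miRNAs tested. Its limma p was 0.0129 and adjusted 0.831. miR-219a-2-3p and miR-338-3p overlapped between genotypes.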

How the data were processed

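Small RNA of prefrontal cortex was sequenced in 8 libraries. Per the submitters' processing notes, cutadapt 1.11, Bowtie 1.1.2, HTSeq 0.6.1p1 and edgeR were named with the build mm10; their order and settings are not given in the sources used here. The deposited values, normalized by the authors per the file headers in a way not given there, are whole numbers with unequal totals, may be raw counts, and were handled as a score, so no count model was run.

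Values were rescaled by an unweighted trimmed mean of log ratios (30% of ratios and 5% of levels trimmed at each end). miRNAs that reached 10 (at the size of the median library) in 4 or more libraries, and 15 in sum, were compared as log2(value + 1), a scale that understates changes of low miRNAs, with limma 3.58.1 in R 4.3.3 (mean-variance trend, Benjamini-Hochberg over all 599 miRNAs tested, threshold 0.05). The procedure was tested on simulated data. Single values were compared by two-sided exact permutation. The text names all members, other Hox-embedded and related miRNAs, the 3 closest matches by r and the marker lists. Members and lists were chosen with earlier results of these data known, and the marker correlations after seeing the data. Hairpins were placed with GENCODE M21. Scalings, filters, pseudocounts, no trend, a replicate block and leaving out each library were tried as alternatives.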

Additional observations from a re-analysis of the deposited data

Results flagged for a closer look

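Levels and marker sums were screened in 22 sets of 4 libraries of 1 genotype, and in 3 sets a single library stood apart. About 1.1 would do so by chance if the sets were independent. They share libraries, so these counts are not a test. For miR-10b-5p, knockout replicate 2 was at a rescaled value of 259 and the other knockout libraries between 75.0 and 96.1. For the summed smooth muscle and mesenchyme markers, wild-type replicate 2 was at 81255 and the other wild-type libraries between 64078 and 66457. For the summed epithelium and olfactory bulb markers, knockout replicate 5 was at 2099.5 and the other knockout libraries between 295 and 557.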

How the results depend on the processing

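The log2 fold changes of miR-10a-5p (-0.82 to -0.49) and miR-10b-5p (-1.42 to -0.78) were below 0 and not past adjustment in all 18 alternatives each, and the count of called miRNAs was 0 in 17 of 18. A replicate block on numbers 1, 2 and 4 called 3 miRNAs, none a member (adjusted p 0.175 for miR-10a-5p and 0.179 for miR-10b-5p), against 0 in the same 6 libraries without it. The block lowered the unadjusted limma p of miR-10b-5p from 0.0713 to 0.00557 and its SE from 0.39 to 0.25. For miR-10a-5p that p went from 0.0130 to 0.00413 and the SE from 0.23 to 0.21. Same-numbered libraries correlated at 0.0652, -0.0385 and 0.133. These were not compared with differently numbered libraries, so whether the numbers pair the libraries was not settled. With 1 library left out, the log2 fold changes ran from -0.82 to -0.49 and from -1.42 to -0.81, the difference in log2 ratio of miR-10b-5p to miR-10a-5p from -0.63 to 0.0027 and the correlation of the strands from 0.563 to 0.873. Under the block the ratio difference was -0.09. The 18 miRNAs lower at an unadjusted p under 0.05 became 5 in the values as deposited, 8 with upper quartile scaling, 29 without a filter and 10 at 10 per 1000000 in 4 libraries, where 1330 and 323 miRNAs were tested; for the first pair the cause was not tested. Without 1 library they were 10 (without knockout replicate 4) to 26. Whether a value is a read number is not settled, which limits the 5 low members most.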
